A study of Mus musculus with 6 samples.

Results

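The 10 genes described here encode enzymes that build triglyceride in mouse liver by the glycerol-3-phosphate route (Gpam, Agpat2, Agpat3, Lpin1, Lpin2, Lpin3, Dgat1, Dgat2) and by the monoacylglycerol route (Mogat1, Mogat2, then Dgat1 or Dgat2). They were chosen by symbol, and all 10 were found among the 24421 genes of the deposited table. Hepatic mRNA was sequenced from 6 male mice, per the labels C57BL/6, aged 21 weeks and fed ad lib (the study's text names C57BL/6 J and a slightly lower age), 3 of them WT and 3 PAI-1 heterozygous. The study's results and figure legend call the WT animals littermate controls and give standard chow for both genotypes. Its methods state that heterozygous mice were bred from PAI-1 null and WT mice, and name no littermates. Neither the labels nor the study's methods name a tissue-restricted allele, so the deficiency is not one of liver alone.

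The study compared hepatic mRNA between these genotypes to exclude an off-target effect of a PAI-1 inhibitor that it gave to other mice. It reported altered expression of lipid metabolism genes in both experiments. The genotype comparison is not made here for these genes, because the 6 per-sample count columns are headed by numbers that match no sample label. The authors' own fold changes and p-values were not used. The values below are the mean normalized count of each gene, the authors' mean over all libraries of read counts divided by a size factor, with both genotypes pooled. They carry no SD. A spread over the 6 libraries needs no genotype label, but the per-sample columns were not used for one. Differences between neighbouring levels were therefore not set against the spread between animals. Genes were compared with each other per kilobase (kb) of their longest annotated transcript unless another length is named. In bulk liver, a gene expressed strongly in few cells and one expressed weakly in many cannot be told apart.

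Triglyceride is made by adding fatty acids to a glycerol backbone 1 at a time. Glycerol-3-phosphate acyltransferases (GPATs) attach the first, lysophosphatidate acyltransferases (AGPATs) attach the next to give phosphatidate, lipins remove the phosphate to give diacylglycerol, and diacylglycerol acyltransferases (DGATs) attach the last. Monoacylglycerol acyltransferases (MOGATs) reach diacylglycerol without passing through phosphatidate, a route best known in the small intestine during fat absorption. In liver the product is stored in lipid droplets or secreted in very low density lipoprotein.

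The hepatic levels of the 10 mRNAs spanned 608-fold per kb, and 4 genes made up 89.98% of their sum. Dgat2 stood highest at 5621 mean normalized counts per kb. Agpat2 followed at 3798, Lpin2 at 1986 and Agpat3 at 1454. A middle group held Lpin1 at 535, Dgat1 at 472 and Gpam at 292 per kb. The lowest were Mogat1 at 62.2, Lpin3 at 61.2 and Mogat2 at 9.24 per kb. Under every length Dgat2 stayed highest and Mogat2 lowest, and each group kept its genes, but the order inside the groups turned. With coding length Gpam (727) stood above Dgat1 (597), and Lpin3 (82.5) above Mogat1 (76.0). Without length scaling Lpin2 (11202) stood above Agpat2 (5656). All 10 had a mean normalized count above 10, as did 12971 of the 24421 genes in the table. Together the 10 took 0.147% of all normalized counts.

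**Figure D1:**
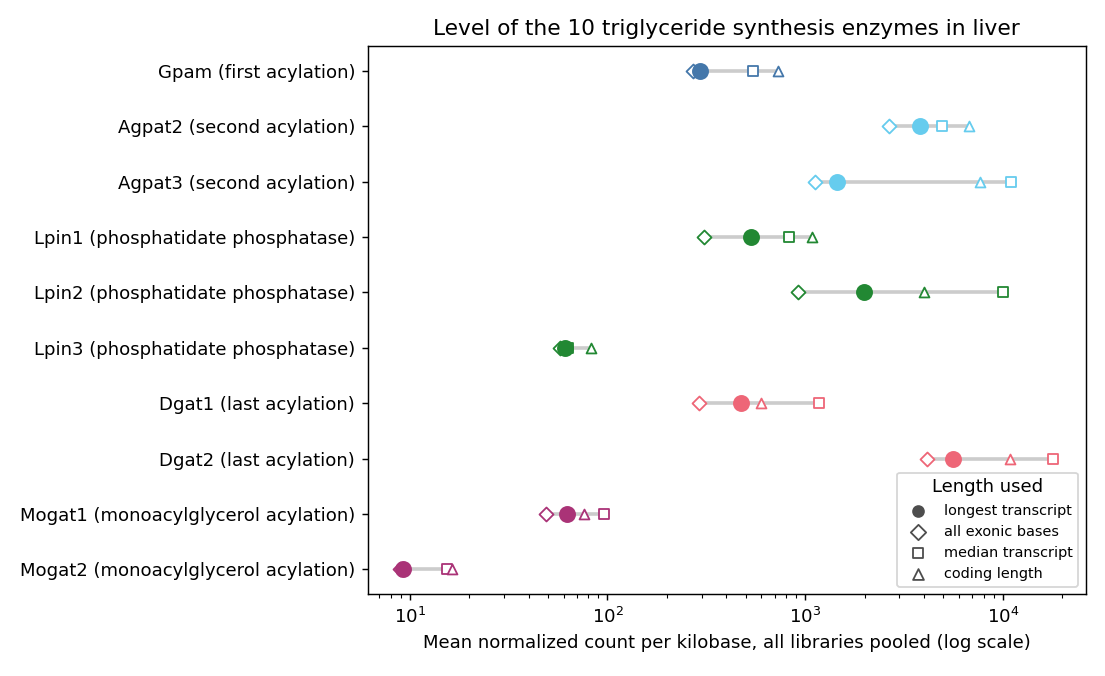
Mean normalized count per kb of the 10 genes on a log axis, all libraries pooled, with filled circles for the longest annotated transcript and open symbols for all exonic bases, the median transcript and the coding length. Dgat2 lies at 5621 and Mogat2 at 9.24 per kb of longest transcript, and the marks of Agpat3 spread widely, from 1116 to 11036 per kb with the length used. No error bars are drawn because the values are pooled.

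Set against the rest of the hepatic transcriptome, the leading enzymes were abundant mRNAs. Among the 12499 genes that had a mean normalized count above 10 and matched 1 annotated length, the median was 129 per kb and the top 10% began at 1209 per kb. Dgat2 lay above 97.6% of these genes, Agpat2 above 96.4%, Lpin2 above 93.4% and Agpat3 above 91.4%. Lpin1 lay above 80.3%, Dgat1 above 78.3% and Gpam above 69.0%. The other 3 fell under the median, Mogat1 above 34.7% of genes, Lpin3 above 34.4% and Mogat2 above 10.05%. These places describe pooled livers and are no test.

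**Figure D2:**
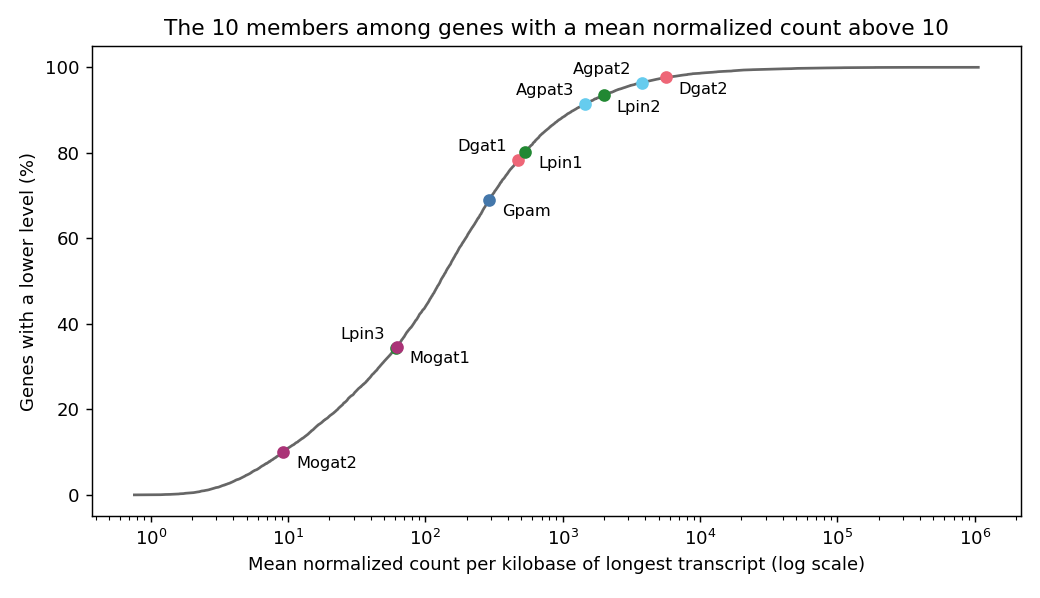
Cumulative share (%) of the genes with a mean normalized count above 10 that have a lower level, against the mean normalized count per kb of longest transcript on a log axis, with the 10 enzymes as points. Dgat2, Agpat2, Lpin2 and Agpat3 lie on the upper shoulder, between 91.4% and 97.6%, and Mogat2 lies at 10.05%.

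Gpam encodes the mitochondrial GPAT that opens the pathway and is a known target of insulin and SREBP-1c. Its mean normalized count was 1804, or 292 per kb. The gene lies at chr19:55067268-55127238 on the minus strand (mm10, GENCODE M21), and its longest transcript has 22 exons and 6172 bases. It is 1 of several hepatic GPATs. Gpat4, which encodes a GPAT of the endoplasmic reticulum and appears in the table under its older symbol Agpat6, stood at 1718 per kb, 5.88-fold above Gpam. With the other lengths that ratio lay between 5.24 for all exonic bases and 19.6 for the median transcript, so Gpat4 was the higher under each of them. Gpat3, listed as Agpat9, stood at 193 per kb and Gpat2 at 25.2.

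For the next acylation, Agpat2 had a mean normalized count of 5656 and Agpat3 one of 8696. Loss of Agpat2 causes generalized lipodystrophy in humans and mice, and Agpat3 encodes an acyltransferase that also handles polyunsaturated acyl chains. Per kb of longest transcript, Agpat2 took 72.3% of the summed level of both and stood 2.61-fold above Agpat3. This order depended on the length. The log2 ratio of Agpat2 to Agpat3 was 1.39 with the longest transcript and 1.25 with all exonic bases, but -0.18 with coding length, -0.62 without scaling and -1.16 with the median transcript. The longest transcript of Agpat3 has 5980 bases, of which 1128 are the coding length, against 1489 and 834 for Agpat2. The median transcript of Agpat3, at 788 bases, is shorter than its coding length and cannot hold the whole coding sequence. The same holds for Lpin2 (1112 against 2793), Dgat2 (709 against 1164) and Gpat4 (887 against 1368). Their levels with the median transcript are to be read with that limit. Coding length and all exonic bases still gave opposite orders. Which of the 2 mRNAs is the more abundant is therefore not settled by these values. Agpat2 lies at chr2:26593057-26604417 and Agpat3 at chr10:78269178-78352489, both on the minus strand. Other AGPAT genes stood lower per kb of longest transcript, Agpat1 at 153, Agpat5 at 28.4 and Agpat4 at 12.6.

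The 3 lipins differed widely. Lipins act as phosphatidate phosphatases and, in the nucleus, as transcriptional coregulators. Lpin2 had a mean normalized count of 11202, Lpin1 one of 2987 and Lpin3 one of 212. Per kb, Lpin2 took 76.9% of their sum, Lpin1 took 20.7% and Lpin3 took 2.37%. Lpin2 stood 3.71-fold above Lpin1, the gene mutated in the fatty liver dystrophy mouse, and 32.5-fold above Lpin3. Lpin2 led under all 5 length settings. Its ratio to Lpin1 lay between 2.96 for all exonic bases and 12.1 for the median transcript, and its ratio to Lpin3 between 15.9 and 159.7 for the same lengths. The genes lie apart, Lpin1 at chr12:16535669-16610966 on the minus strand, Lpin2 at chr17:71182560-71249817 and Lpin3 at chr2:160880670-160906002, both on the plus strand.

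The DNA before annotated transcript starts of the lipin genes is shown because these 3 paralogs share a reaction and differ in level. Each sequence is the 250 bases upstream of a RefSeq transcript start (GRCm38.p6, 5′ to 3′ on the gene's strand) and holds no base of an exon annotated in GENCODE M21. All windows of the lipins that met this are printed. Capitals mark matches on either strand to 4 motifs. They are the E-box, spelled CACGTG, and the core promoter motif TATAAA. The others are the binding motif CCAAT and the motif GGGCGG, known as the GC box. The matches in the printed windows do not overlap. Both Lpin2 windows, chr17:71183282-71183531 and chr17:71204404-71204653, lie inside the annotated span of that gene, before later transcript starts. The Lpin1 window at chr12:16610967-16611216 and the Lpin3 window at chr2:160880420-160880669 lie directly before the gene.
Lpin2, earlier start: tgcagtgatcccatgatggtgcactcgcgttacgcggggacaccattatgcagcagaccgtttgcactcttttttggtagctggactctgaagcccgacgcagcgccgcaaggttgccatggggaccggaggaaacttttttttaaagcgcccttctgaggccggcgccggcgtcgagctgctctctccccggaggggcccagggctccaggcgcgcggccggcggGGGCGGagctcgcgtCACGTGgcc
Lpin2, later start: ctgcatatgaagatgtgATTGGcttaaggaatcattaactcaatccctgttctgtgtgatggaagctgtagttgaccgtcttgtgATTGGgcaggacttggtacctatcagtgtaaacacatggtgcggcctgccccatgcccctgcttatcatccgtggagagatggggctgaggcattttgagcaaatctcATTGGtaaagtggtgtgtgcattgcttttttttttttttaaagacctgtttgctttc
Lpin1: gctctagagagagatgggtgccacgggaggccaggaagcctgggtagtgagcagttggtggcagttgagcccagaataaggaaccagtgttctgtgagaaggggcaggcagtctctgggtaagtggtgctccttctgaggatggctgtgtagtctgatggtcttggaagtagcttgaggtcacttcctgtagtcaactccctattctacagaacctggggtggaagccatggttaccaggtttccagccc
Lpin3: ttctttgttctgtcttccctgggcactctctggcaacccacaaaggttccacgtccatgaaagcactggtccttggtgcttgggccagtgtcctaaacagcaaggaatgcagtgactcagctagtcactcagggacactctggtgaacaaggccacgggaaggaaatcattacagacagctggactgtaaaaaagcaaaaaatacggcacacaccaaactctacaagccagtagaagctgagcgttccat

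The earlier Lpin2 window was 65.2% G or C and held 26 CpG dinucleotides, more than 90.4% of the 32851 windows of the same length in the RefSeq table. It held 1 GGGCGG and 1 CACGTG near the start site. The later Lpin2 window was 44.8% G or C with 3 CpG and held 3 matches to CCAAT, so the windows of this gene differed among themselves. The Lpin1 window was 54.8% G or C with 1 CpG, and the Lpin3 window 49.6% with 4, against medians of 52.4% and 6 over all windows. Neither of these printed Lpin1 and Lpin3 windows held any of the 4 motifs. Another Lpin3 window, chr2:160887918-160888167, was not printed because 171 of its bases lie in annotated exons. It was 61.6% G or C with 16 CpG and held 1 GGGCGG, so the windows of Lpin3 differed too. Another Lpin2 window, chr17:71183728-71183977, had 17 such bases. It was 83.2% G or C with 50 CpG and held 1 GGGCGG. The table held 11 windows for 7 of the 10 genes (Gpam, Agpat2, Agpat3, Lpin1, Lpin2, Lpin3 and Mogat1), and 6 of the 11 had no base in an annotated exon. Of the 11, 1 held CACGTG, 0 held TATAAA, 2 held CCAAT and 5 held GGGCGG, where the shares over all windows were 6.02%, 12.4%, 33.8% and 32.7%. A match describes letters and is no measure of binding, and nothing in these data links a window to a level.

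The last step was led by Dgat2. DGAT1 and DGAT2 catalyse the same reaction but belong to unrelated protein families, DGAT2 being tied mainly to fatty acids newly made in the cell. Dgat2 had a mean normalized count of 12716 and Dgat1 one of 892. Per kb, Dgat2 took 92.2% of their sum and stood 11.9-fold above Dgat1. The ratio lay between 14.1 for all exonic bases and 18.3 for coding length in the other settings, so its direction did not depend on the length. Dgat1 lies at chr15:76502015-76511953 and Dgat2 at chr7:99153658-99182719, both on the minus strand.

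The MOGAT genes were the least expressed step. Mogat1 had a mean normalized count of 76.3 and Mogat2, the main intestinal enzyme, one of 16.5. Their summed level was 71.4 per kb, of which Mogat1 gave 87.1%, 6.73-fold more than Mogat2. Gpam alone stood 4.09-fold above that sum, and 7.87-fold with coding length. Dgat2 stood 78.7-fold above it, and between 71.2-fold with all exonic bases and 161-fold with the median transcript. Mogat1 lies at chr1:78510991-78538173 on the plus strand and Mogat2 at chr7:99219084-99238619 on the minus strand.

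**Figure D3:**
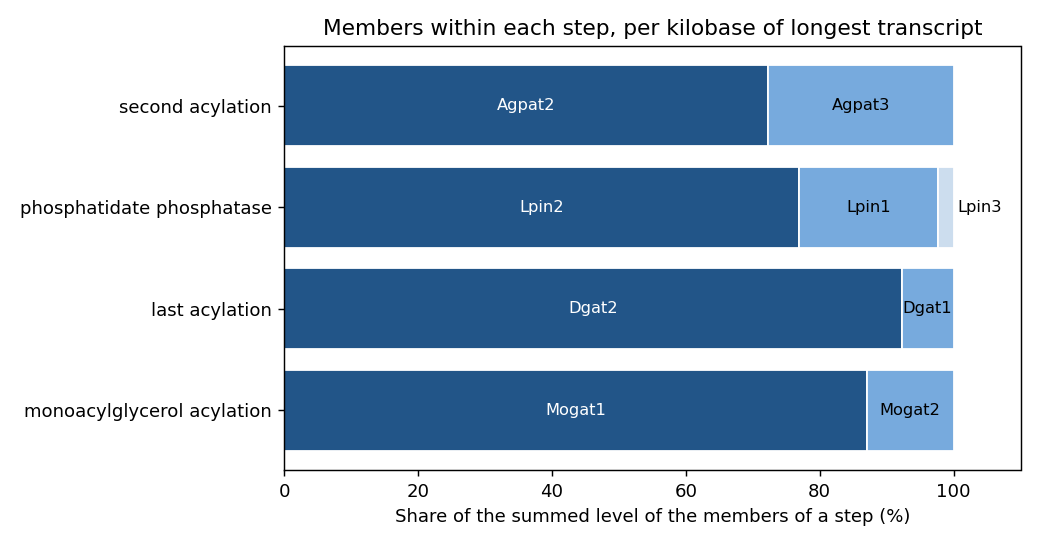
Share (%) of the summed mean normalized count per kb of longest transcript that each gene takes within its step, as bars from 0 to 100%, all libraries pooled. Dgat2 takes 92.2% of the last acylation, Mogat1 87.1% of monoacylglycerol acylation, Lpin2 76.9% of the phosphatase step and Agpat2 72.3% of the second acylation. The order of Agpat2 and Agpat3 turns with the length used.

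Across the steps, the summed level of the listed genes was 292 per kb for GPAT (Gpam alone), 5253 for AGPAT, 2583 for the lipins and 6094 for DGAT. The AGPAT sum was 18.0-fold, the lipin sum 8.84-fold and the DGAT sum 20.8-fold the level of Gpam. These sizes moved with the length used, and the median transcript is shorter than the coding length for Agpat3, Lpin2, Dgat1 and Dgat2. The AGPAT ratio lay between 13.9 with all exonic bases and 29.3 with the median transcript, the lipin ratio between 4.74 and 20.1 for the same lengths, and the DGAT ratio between 15.8 with coding length and 35.0 with the median transcript. The GPAT figure leaves out Gpat4, which alone exceeded Gpam as described above. An mRNA level is not an enzyme activity, which was not measured in these libraries.

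By a limit of 30% identity, the proteins fall into 2 groups and 4 enzymes that reached it with no other of the 10. A pair below that limit is not thereby shown to be unrelated. Residues identical in a global alignment, as a percentage of all alignment columns, came to 30% or more in 6 of 45 pairs. The lipins were 48.4% (Lpin1 and Lpin2), 46.1% (Lpin2 and Lpin3) and 44.8% (Lpin1 and Lpin3) identical. Mogat1 and Mogat2 shared 52.5%, and Dgat2 shared 41.2% with Mogat2 and 39.9% with Mogat1. The other 39 pairs lay between 8.27% and 17.7%, among them Dgat1 and Dgat2 at 17.2% and Agpat2 and Agpat3 at 16.1%. Dgat2 and Mogat2 are also neighbours on chromosome 7, on the same strand and 36364 bases apart, with 0 protein-coding genes between them. Their hepatic levels were nevertheless at opposite ends of the 10.

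**Figure D4:**
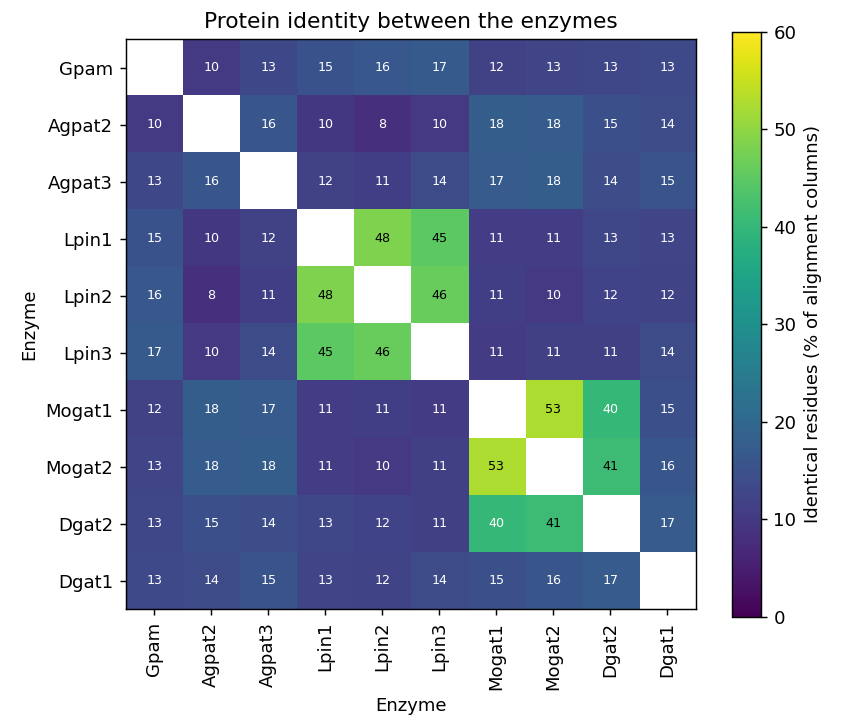
Identical residues as a percentage of global alignment columns for each of the 45 pairs of the 10 enzymes, by colour from 0 to 60% and as rounded numbers. The 3 lipins form a bright block between 44.8% and 48.4%, and Dgat2, Mogat1 and Mogat2 form another between 39.9% and 52.5%.

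Reads of 75 bases could mostly be told apart between these genes. For 9 of the 10, 0 of the 75-base stretches of their annotated transcripts occurred in a transcript of another gene, and 0 stretches were shared between any of the 10. For Mogat1, 129 of 1527 stretches (8.45%) also occurred in BC035947, a protein-coding gene on the other strand that overlaps 200 of its exonic bases. That is a share of stretches and not of reads. No level was found for BC035947, so the uncertainty of the Mogat1 count is not known. Agpat2 overlaps Egfl7 on the other strand by 64 exonic bases, Mogat2 overlaps Gm45012 by 55 and Agpat3 overlaps Gm40709 by 16. Whether reads were counted by strand is not given in the sources used here, and without strand the reads of overlapping genes cannot be told apart.

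Of 24 other genes of glycerolipid synthesis and lipid droplet formation, 23 were found in the table and 21 had a mean normalized count above 10. Their median was 321 per kb, against 504 for the 10 enzymes. The median was 129 for genes above a mean normalized count of 10. It was 7.72 for all 23334 genes with a length, which include genes listed at 0. Of the 23, 8 were in the top 10% of all genes with a length (572 per kb or more), as were 4 of the 10. Acsl1, which activates fatty acids to acyl-CoA, stood at 13076 per kb, above Dgat2. Gpd1, which makes glycerol-3-phosphate from a glycolytic intermediate, stood at 5562, near Dgat2. Acsl5 stood at 2416, the droplet protein gene Aup1 at 2326, the lipid phosphate phosphatase gene Plpp3 at 2082 and the glycerol kinase gene Gk at 1652 per kb. Awat1, a wax synthase of the DGAT2 family, was listed at 0.

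**Figure D5:**
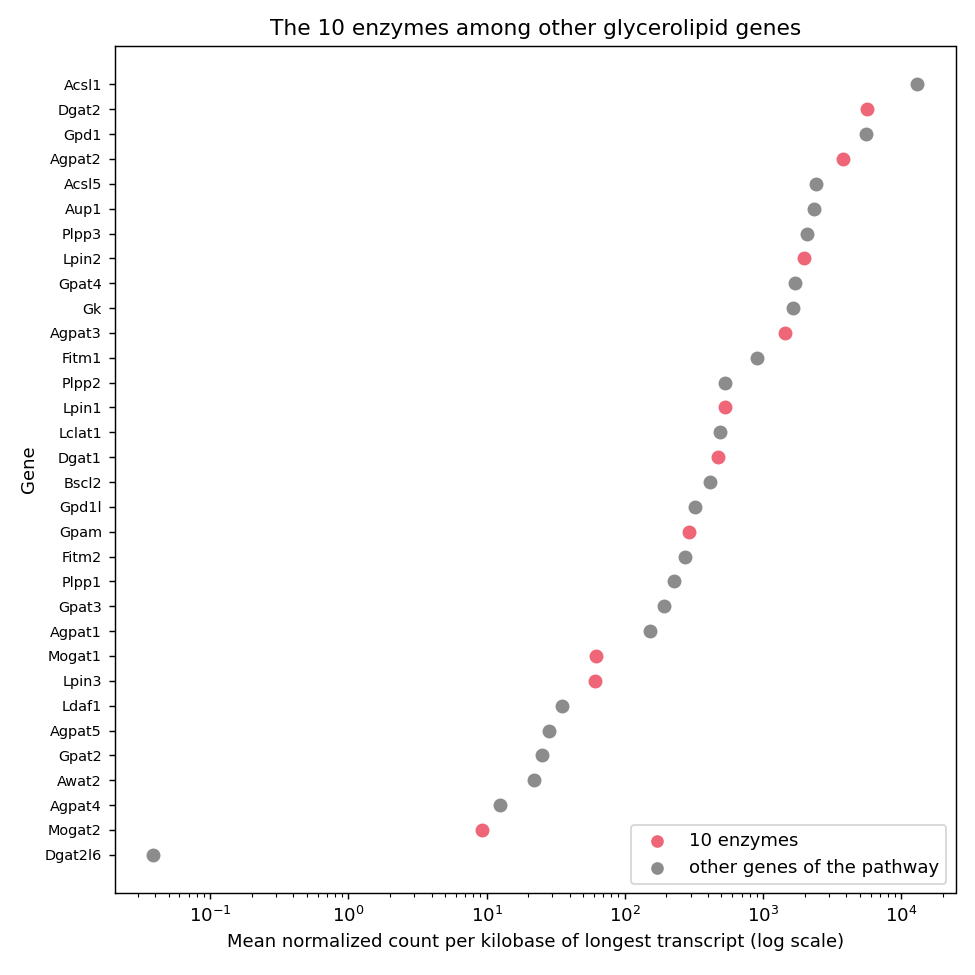
Mean normalized count per kb of longest transcript on a log axis for the 10 enzymes and the other pathway genes listed above 0, all libraries pooled and ordered by level. Acsl1 is highest at 13076, Dgat2 and Gpd1 follow at 5621 and 5562, and Mogat2 lies near the bottom at 9.24.

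The pooled libraries carried the defining mRNAs of liver, with 8 of 8 hepatocyte markers in the top 10% of genes per kb. Since Agpat2, Dgat2 and the lipins are also active in fat, and Mogat2 in gut, markers of those tissues were read as well. Over all genes, 12971 of 24421 exceeded a mean normalized count of 10. Of 6 adipocyte markers, 2 did, Car3 and Cfd, and Car3 is also made by hepatocytes. Adipoq stood at 7.87, Plin1 at 4.75, Retn at 1.90 and Lep at 0.866 mean normalized counts. Of 5 enterocyte markers, 3 exceeded 10. They were Apoa4, which hepatocytes also make, Fabp2 at 3058, in the top 10% of genes at 3169 per kb, and Vil1 at 45.1. Lct stood at 1.42 and Sis at 8.72. Of 4 skeletal muscle markers, 0 exceeded 10, whereas all markers of Kupffer cells (6), endothelial cells (5), stellate cells (5) and cholangiocytes (4) did. Of 3 red cell markers, Alas2 stood at 2136 and the globin genes Hba-a1 and Hbb-bs were listed at 0. Whether a listed 0 means that the mRNA was absent was not tested. The part of these cells in the levels of the 10 genes was not tested.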

How the data were processed

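Libraries of mRNA from 6 livers were sequenced by the authors as 75-base single-end reads, aligned to mm10 with STAR and analysed with DESeq2, and the submitters' notes also name HOMER. Tool versions, annotation and strand setting are not given in the sources used here. The signal used is the authors' deposited mean normalized count over all libraries, which sums to 30045982 over 24421 genes. Per-sample values were not used, so no depth per library, interval or SD is given. The deposited log2 fold changes, standard errors, statistics and p-values were not used, nor were 6 per-sample count columns, whose headings match no label. The planned genotype test by edgeR was therefore not run. The targeted gene is not reported here.

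Each mean was divided by the longest GENCODE M21 transcript in kb, with 1 length matched for 23334 symbols (95.5%). Ranks, shares and ratios were computed with pandas 2.3.3. Proteins were translated from GENCODE coding sequences and aligned with Biopython 1.88 (BLOSUM62, gap opening -11.0, extension -1.0). Promoter sequences came from RefSeq (GRCm38.p6). Scripts were checked on constructed inputs with known answers.

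The 10 genes and the lists were chosen with earlier results of these data known. All 10 were named, and other genes came from fixed lists of pathway genes and cell type markers. Among the steps set after values were seen were the 30% identity limit, its denominator, the promoter motifs and the promoters printed.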

Additional observations from a re-analysis of the deposited data

How the results depend on the processing

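The count of enzymes in the top 10% of genes was 4 with the longest transcript, and 4 with coding length, the median transcript, all exonic bases or only genes above a mean normalized count of 10. It was 6 without length scaling. The gene leading its step was the same in 4 of 4 steps with all exonic bases and in 3 of 4 with coding length, the median transcript or no scaling. The exception was the log2 ratio of Agpat2 to Agpat3, which was 1.39 with the longest transcript and turned to -0.18 with coding length, -0.62 without scaling and -1.16 with the median transcript. Of 20 alternative ratios between a leading gene and another of its step, 12 stayed within 1.5-fold, 5 moved by more in the same direction (4 larger, 1 smaller) and these 3 reversed. Without scaling, the AGPAT sum was 7.96-fold, the lipin sum 7.98-fold and the DGAT sum 7.54-fold the count of Gpam, Gpam was 19.4-fold the MOGAT sum and Dgat2 137-fold. The exonic lengths, the median transcript for the order within steps and all alternatives for these sums were added after seeing the data. For Agpat3, Lpin2, Dgat1, Dgat2 and Mogat1 the median transcript is shorter than the coding length. Of the 45 protein pairs, 6 reached 30% identity in the global alignment over all columns. In a local alignment 6 did, there as a percentage of the shorter protein. With that denominator the global alignment gave 15. It was the first denominator computed for the global alignment, and it was replaced there after its values were seen.

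No paired analysis was possible because the count columns carry no replicate number or genotype. For the same reason DESeq2, a fit without a filter on low counts, the replicate block and fits leaving out a mouse were not run. Pooled means give no precision, and Mogat2, at 16.5 mean normalized counts, rests on the fewest reads of the 10.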
